A study of Mus musculus with 8 samples.

Results

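The 9 genes described here encode fibronectin and 8 matricellular proteins: Fn1, Sparc, Spp1, Tnc, Thbs1, Thbs2, Ctgf, Cyr61 and Tgfbi. They were chosen by symbol from the 15047 genes of the deposited RNA-Seq values, and 9 of 9 listed genes were found. The values come from pancreas tissue of 8 male mice. LFD (n = 3) and HFD (n = 3) were wild-type C57BL/6 mice given a low-fat or a high-fat diet for 10 weeks from 4 weeks of age, with 60% of the HFD calories from fat. The ob/ob mice (n = 2) were C57BL/6J mice that lack leptin in every tissue, and they ate normal chow, so that genotype and chow cannot be told apart in them. According to the study's methods, all of these mice carried an orthotopic transplant of mT organoids, grown from pancreatic tumors of KPC mice, a genetic model of pancreatic cancer. The sample labels name only pancreas. Each library is therefore bulk tissue that can hold exocrine pancreas, transplanted cells and stroma, and no control without a transplant was analysed here.

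Matricellular proteins are secreted into the extracellular matrix, where they change how cells attach, migrate and sense growth factors rather than bearing load as collagens do. Fibronectin is a structural matrix glycoprotein on which several of them assemble, and cells hold both through integrins and CD44. In adult tissue most are low and appear in wound repair, in fibrosis and in the desmoplastic stroma of pancreatic cancer, where fibroblasts, macrophages, platelets and tumor cells can each make some of them. CTGF and CYR61 (CCN family) are textbook targets of YAP with TEAD factors, and TGFBI, CTGF and fibronectin are known TGF-β targets.

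Values are rlog values, on a log2 scale corrected for library size, so 1 unit is a doubling. The rlog step shrinks differences of genes with few reads. Read counts were not used here, so depth is unknown and the spread between mice is the only error given. The rlog values ranged from 0.466 to 24.32, and the median over all genes of a mouse lay between 7.09 and 7.25. Differences were tested with limma over all genes, and a gene was called at a Benjamini-Hochberg adjusted p under 0.05.

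The upstream sequences shown here give the context of the CCN family member Cyr61, the one gene in which a TEAD motif was found. RefSeq (GRCm38.p6) gave sequences before the transcript start for 6 of the 9 genes, not for Fn1, Thbs1 and Ctgf, with 8 starts in all because Tnc and Spp1 have a pair each. The last 130 bases before the start are printed 5′ to 3′ on the gene's strand for the 3 genes with a motif in that stretch. They are Cyr61 (chr3:145649986-145650115, minus strand), the more upstream start of Tnc (chr4:64047016-64047145, minus strand) and Thbs2 (chr17:14694263-14694392, minus strand). Capitals mark the TEAD motif GGAATG or the TATA motif TATAAA, each on either strand.
Cyr61: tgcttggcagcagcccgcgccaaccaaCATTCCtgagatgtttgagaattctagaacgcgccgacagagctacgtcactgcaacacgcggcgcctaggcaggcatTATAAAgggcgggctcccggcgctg
Tnc: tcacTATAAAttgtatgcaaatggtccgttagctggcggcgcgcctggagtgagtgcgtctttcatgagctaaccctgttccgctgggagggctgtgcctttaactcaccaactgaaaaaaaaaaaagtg
Thbs2: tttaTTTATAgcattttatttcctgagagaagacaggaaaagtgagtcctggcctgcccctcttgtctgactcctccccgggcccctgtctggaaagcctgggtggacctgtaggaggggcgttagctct

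Within 250 bases before the start, GGAATG was present in 1 of the 8 windows of these genes, a share close to the 12.6% of 32851 such windows over all genes. In Cyr61 it lay on the opposite strand, as CATTCC, from position -103 to -98, counted back from -1 as the last base before the start. TATAAA was present in 5 of the 8 windows (Cyr61, Thbs2, 1 of Spp1 and both of Tnc, which share 1 site) and in 12.4% of all windows, and in Cyr61 it lay from -25 to -20. In the other genes it lay further upstream, from -126 to -121 in Thbs2 and from -211 to -206 in Spp1. In Tnc it lay from -126 to -121 or from -205 to -200, depending on the start. The AP-1 motif TGANTCA and the CArG box of serum response factor were present in 0 of the 8 windows and in 6.75% and 1.47% of all windows. These matches describe letters of the reference sequence and no binding was measured.

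All 9 genes had higher mean rlog values in HFD than in LFD and in ob/ob than in LFD. The largest differences were those of Tnc, with 1.86 in HFD and 2.05 in ob/ob, and of Tgfbi in ob/ob, with 2.05. None was called, since limma called 0 of 15047 genes (0%) in HFD against LFD, where 2985 genes had an unadjusted p under 0.05. In ob/ob against LFD it also called 0 genes (0%), with 2831 genes at an unadjusted p under 0.05. At an unadjusted p under 0.05, 8 of 9 genes were higher in HFD, against 11.5% of all genes, and 7 of 9 were higher in ob/ob, against 11.6%. The median difference of the 9 genes was 1.20 in HFD and 1.85 in ob/ob, and that of all genes was 0.03 and 0.04. Both comparisons use the same 3 LFD mice.

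**Figure D1:**
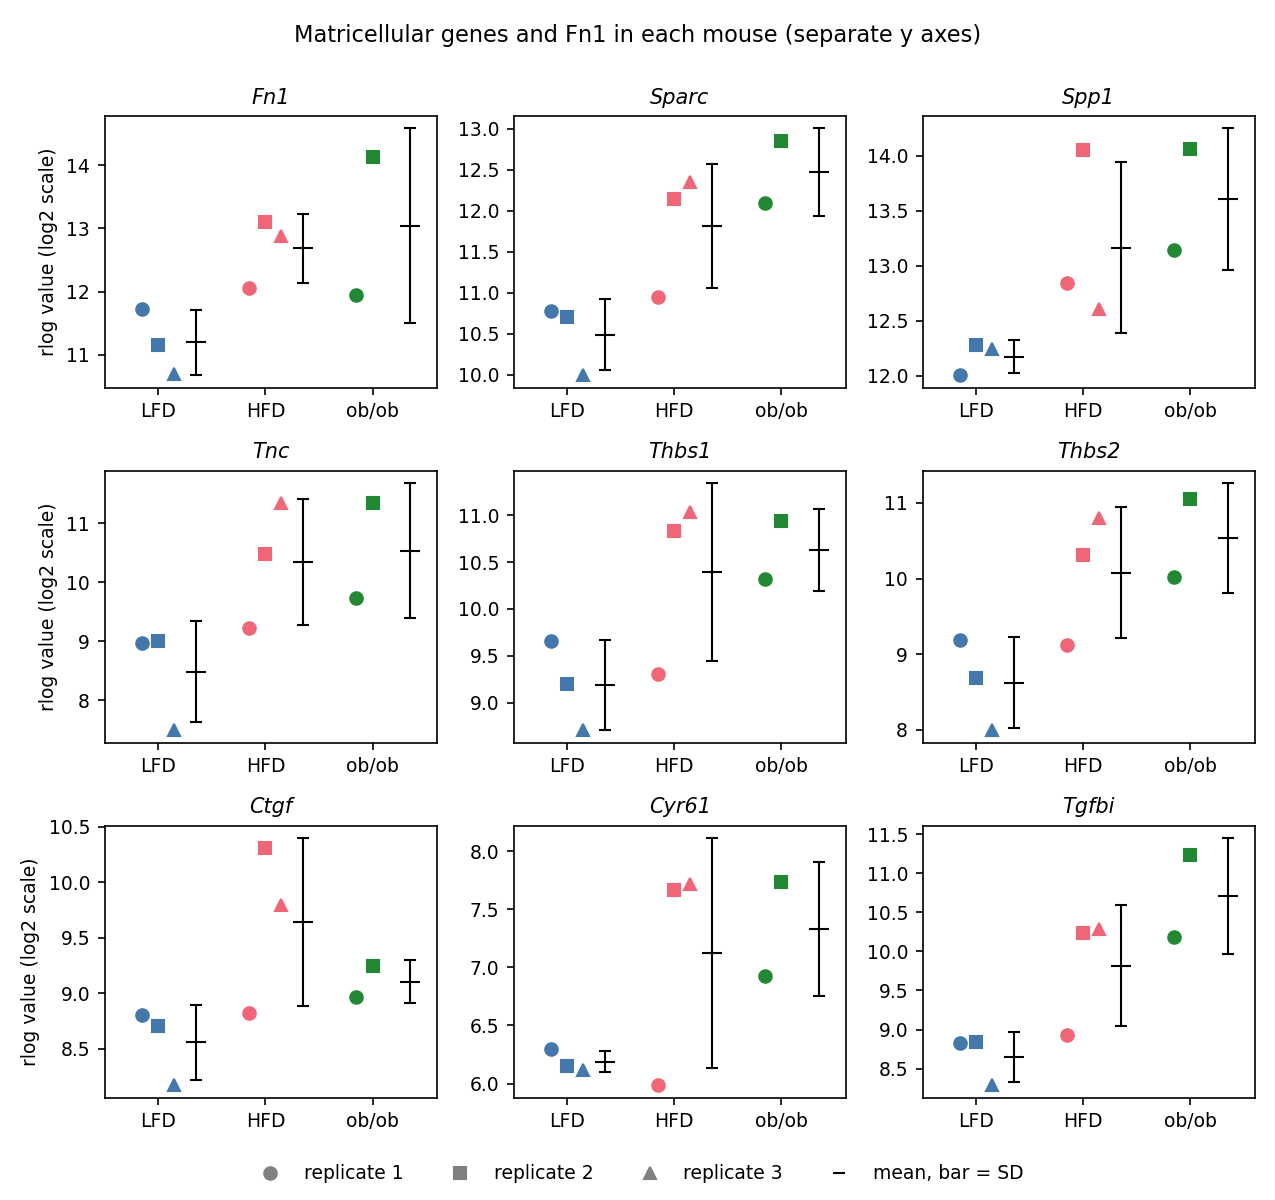
The rlog value (log2 scale, separate y axes) of each of the 9 genes in every mouse, with the group mean and SD as a black bar beside the points. HFD replicate 1 was the lowest HFD mouse for 8 of 9 genes, and ob/ob replicate 2 lay above ob/ob replicate 1 for 9 of 9.

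The spread inside the groups had the same form for most of the genes. HFD replicate 1 was the lowest HFD mouse for 8 of 9 genes, all but Spp1, and LFD replicate 3 was the lowest LFD mouse for 8 of 9, again all but Spp1. Against the LFD mice, HFD replicate 1 lay above all 3 for 6 genes, inside their range for Thbs1 and Thbs2, and below all 3 for Cyr61. In all 9 genes the range over the HFD mice was wider than over the LFD mice. Groups did not overlap, with HFD higher, for 6 of 9 genes (12.9% of all genes). With ob/ob higher than LFD this held for 9 of 9 (24.1% of all genes, where 2 ob/ob mice had to lie above 3 LFD mice).

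Fibronectin and the 2 collagen-binding or counter-adhesive glycoproteins come first. Fn1 (chr1:71585520-71653200, GRCm38, minus strand) encodes the fibronectin on which matrix is assembled. Its rlog values were 11.73, 11.16 and 10.70 in LFD, 12.06, 13.10 and 12.88 in HFD, and 11.95 and 14.13 in ob/ob. Both obese groups lay above every LFD mouse, but ob/ob replicate 1 lay only just above LFD replicate 1. The ob/ob mean of 13.04 ± 1.54 (SD, n = 2) thus had the widest spread of all group means of the 9 genes. The difference from LFD (11.20 ± 0.52, SD, n = 3) was 1.49 (SE 0.548, adjusted p = 0.215) in HFD and 1.85 (SE 0.613, adjusted p = 0.214) in ob/ob.

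Sparc (chr11:55394500-55423183, minus strand) encodes osteonectin, which binds collagen and calcium and is abundant in activated stroma. Its values were 10.77, 10.71 and 9.99 in LFD, 10.95, 12.14 and 12.36 in HFD, and 12.10 and 12.85 in ob/ob. HFD replicate 1 sat next to the LFD mice, whereas the other HFD mice and both ob/ob mice formed a higher group. The difference was 1.32 (SE 0.403, adjusted p = 0.188) in HFD and 1.98, or 3.96-fold, in ob/ob (SE 0.450, adjusted p = 0.167).

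Tnc (chr4:63959785-64047015, minus strand) encodes tenascin-C, a large hexameric glycoprotein that interferes with attachment to fibronectin. Its values were 8.96, 9.0 and 7.49 in LFD, 9.22, 10.47 and 11.35 in HFD, and 9.72 and 11.34 in ob/ob. HFD replicate 1 and ob/ob replicate 1 lay less than 1 unit above the highest LFD mouse, and LFD replicate 3 lay well below the other LFD mice. The difference of 1.86 in HFD had an SE of 0.642 (adjusted p = 0.203), and that of 2.05 in ob/ob an SE of 0.718 (adjusted p = 0.223), the largest errors of the 9 genes.

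The thrombospondins are trimeric glycoproteins that bind CD36, CD47 and integrins, restrain vessel growth and, for thrombospondin-1, can activate latent TGF-β. Thbs1 (chr2:118111876-118127133, plus strand) had values of 9.66, 9.20 and 8.71 in LFD, 9.30, 10.83 and 11.04 in HFD, and 10.32 and 10.94 in ob/ob. Thbs2 (chr17:14665500-14694235, minus strand) had values of 9.19, 8.69 and 7.99 in LFD, 9.13, 10.31 and 10.80 in HFD, and 10.02 and 11.05 in ob/ob. For both genes HFD replicate 1 lay below LFD replicate 1, so HFD and LFD overlapped, while ob/ob and LFD did not. For Thbs1 the difference was 1.20 (SE 0.455, adjusted p = 0.219) in HFD and 1.44 (SE 0.509, adjusted p = 0.224) in ob/ob. For Thbs2 it was 1.46 (SE 0.478, adjusted p = 0.195) in HFD and 1.91 (SE 0.535, adjusted p = 0.196) in ob/ob.

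Ctgf and Cyr61 encode the CCN proteins CCN2 and CCN1, which bind integrins and heparan sulfate. Ctgf (chr10:24595442-24598683, plus strand) had values of 8.80, 8.70 and 8.17 in LFD, 8.82, 10.31 and 9.80 in HFD, and 8.97 and 9.25 in ob/ob. It is the only one of the 9 genes whose mean was higher in HFD (9.64 ± 0.75, SD, n = 3) than in ob/ob (9.11 ± 0.20, SD, n = 2). HFD replicate 1 lay 0.02 above the highest LFD mouse, which makes the absence of overlap for this gene a matter of hundredths of a unit. The difference from LFD was 1.08 (SE 0.356, adjusted p = 0.195) in HFD and 0.55 (SE 0.398, adjusted p = 0.446) in ob/ob.

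Cyr61 (chr3:145646976-145649981, minus strand), whose upstream sequence is printed above, had values of 6.30, 6.15 and 6.12 in LFD, 5.98, 7.67 and 7.72 in HFD, and 6.93 and 7.74 in ob/ob. The LFD mice were the most alike for this gene, with an SD of 0.09, while HFD replicate 1 was the lowest of all 8 mice. The difference was 0.93 (SE 0.458, adjusted p = 0.288) in HFD and 1.14 (SE 0.512, adjusted p = 0.271) in ob/ob. Its mean over the mice was at percentile 44.1 of all genes, the lowest of the 9, and the other 8 lay between percentiles 84 (Ctgf) and 99.3 (Spp1), so that the shrinkage of rlog bears most on Cyr61.

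Spp1 (chr5:104435118-104441050, plus strand) encodes osteopontin, a ligand of CD44 and of αv integrins that duct cells and macrophages can secrete. Its values were 12.01, 12.28 and 12.24 in LFD, 12.84, 14.05 and 12.60 in HFD, and 13.15 and 14.06 in ob/ob. The order of the mice differed from that of the other genes, since HFD replicate 3 was the lowest HFD mouse and HFD replicate 2 stood next to ob/ob replicate 2. Every HFD and ob/ob mouse lay above the LFD mice. The difference was 0.99 (SE 0.406, adjusted p = 0.234) in HFD and 1.43 (SE 0.454, adjusted p = 0.210) in ob/ob.

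Tgfbi (chr13:56609523-56639562, plus strand) encodes a secreted integrin-binding protein induced by TGF-β. Its values were 8.83, 8.84 and 8.29 in LFD, 8.93, 10.24 and 10.28 in HFD, and 10.18 and 11.23 in ob/ob. HFD replicate 1 lay 0.09 above the highest LFD mouse, and ob/ob replicate 1 was close to the other HFD mice. The difference was 1.17 (SE 0.409, adjusted p = 0.206) in HFD and 2.05, or 4.15-fold, in ob/ob (SE 0.457, adjusted p = 0.157).

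**Figure D2:**
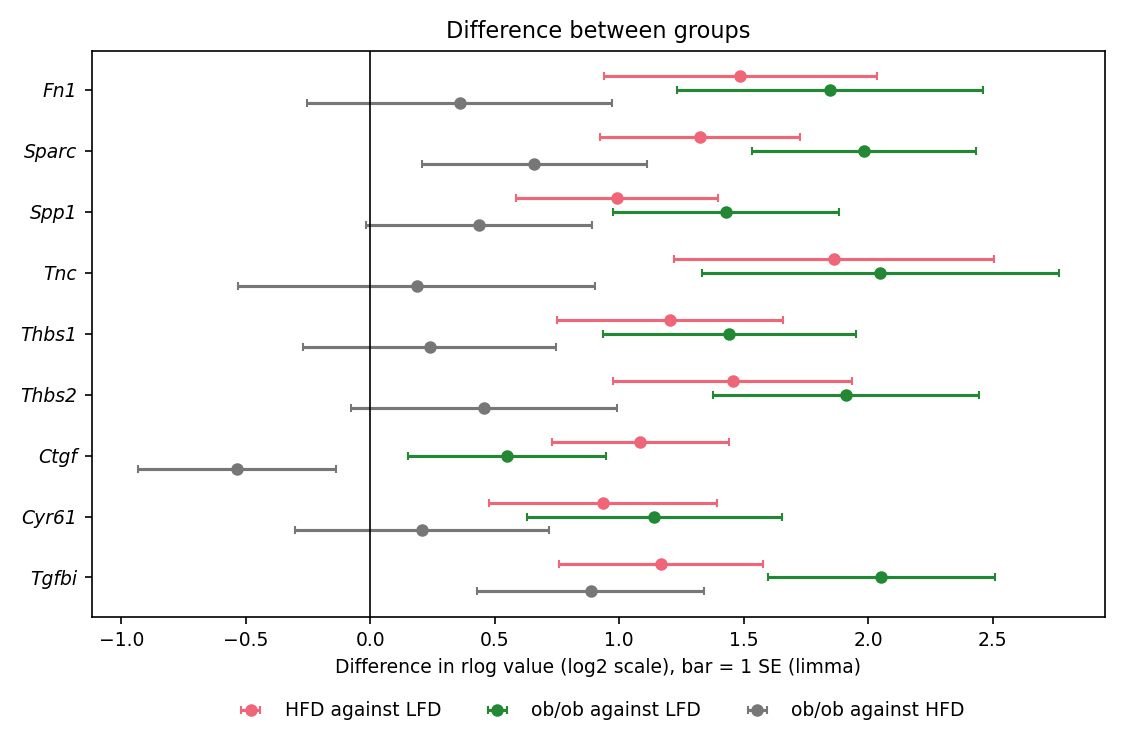
Difference in rlog value (log2 scale) of each gene between groups, with a bar of 1 SE from limma. All 9 differences from LFD are above 0 in both groups, from 0.55 (Ctgf in ob/ob) to 2.05, and those between ob/ob and HFD run from -0.54 (Ctgf) to 0.88 (Tgfbi).

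The obese groups were also compared with each other, as ob/ob against HFD. These mice differ in both genotype and food, so a difference cannot be assigned to either. With so few mice, a small difference does not show that the levels were alike. For 8 of the 9 genes the means ran in the order LFD, HFD, ob/ob, but the step from HFD to ob/ob was within 2 SE for all of them. The differences between ob/ob and HFD ran from -0.54 (Ctgf, SE 0.398) to 0.88 (Tgfbi, SE 0.457), with a median of 0.36. Over all genes the median was 0.01. With limma, 0 of 9 genes had an unadjusted p under 0.05 (2.28% of all genes higher), 0 of 9 did not overlap (7.92% higher), and 0 of 15047 genes were called (0%, with 588 at an unadjusted p under 0.05). Tgfbi had the lowest unadjusted p of the 9 in limma, 0.0864, and its adjusted p was 0.9996. Without ob/ob replicate 2 the differences of 6 of these genes, Fn1, Spp1, Tnc, Thbs1, Thbs2 and Cyr61, turned negative, and without HFD replicate 1 those of Tnc, Thbs1, Thbs2 and Cyr61 did.

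With the mean of HFD and ob/ob set against LFD, the differences were 1.96 for Tnc (SE 0.578), 1.68 for Thbs2 (SE 0.431), 1.67 for Fn1 (SE 0.494) and 1.65 for Sparc (SE 0.363). They were 1.61 for Tgfbi (SE 0.369), 1.32 for Thbs1 (SE 0.410), 1.21 for Spp1 (SE 0.366), 1.04 for Cyr61 (SE 0.413) and 0.82 for Ctgf (SE 0.321). The median of the 9 was 1.61, against 0.04 over all genes. All 9 had an unadjusted p under 0.05 in limma (14.5% of all genes higher), and 6 of 9 did not overlap (9.4% higher). None passed the adjustment, with adjusted p-values in limma from 0.0962 (Sparc) to 0.171 (Cyr61), and 0 of 15047 genes did (0%, with 3825 at an unadjusted p under 0.05).

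Whether these differences were called depended on which mouse was left out. Without HFD replicate 1, limma gave an adjusted p under 0.05 to 9 of 9 genes in the comparison of both groups with LFD, from 0.0118 to 0.0396, along with 3326 genes or 22.1% of all. In HFD against LFD the same step called 7 of 9 genes, all but Fn1 and Spp1, along with 2812 genes or 18.7%. In ob/ob against LFD it called Sparc (adjusted p = 0.0498) and Tgfbi (adjusted p = 0.0468), along with 89 genes or 0.591%. Leaving out ob/ob replicate 1 instead called 2 of the 9 genes, Fn1 (adjusted p = 0.0448) and Tgfbi (adjusted p = 0.0468), in both groups against LFD, along with 476 genes or 3.16%. HFD replicate 1 was kept in every result that is not given as leaving out a mouse, since nothing in its labels sets it apart.

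**Figure D3:**
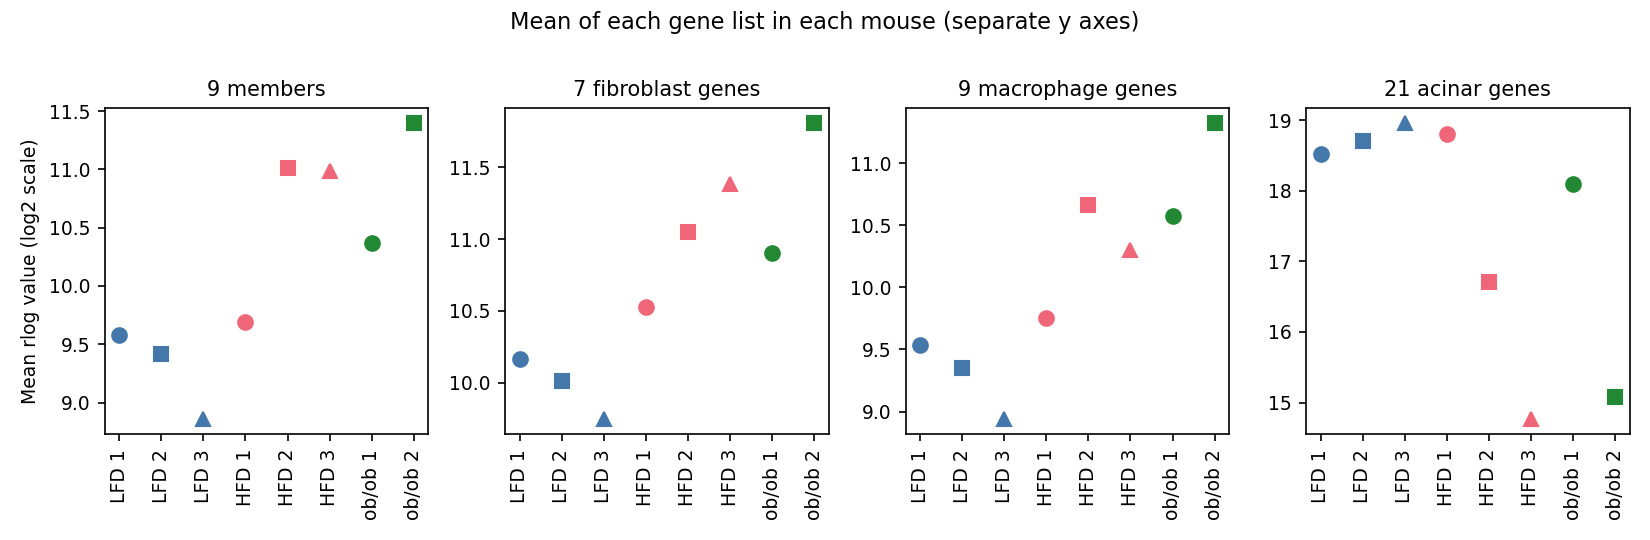
Mean rlog value (log2 scale, separate y axes) in each mouse of the 9 genes and of 3 marker lists. The 9-gene mean and the fibroblast mean both run from lowest in LFD replicate 3 (8.85 and 9.74) to highest in ob/ob replicate 2 (11.40 and 11.81), and the acinar mean is lowest in HFD replicate 3 (14.76) and ob/ob replicate 2 (15.07).

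Markers of several cell types moved with the 9 genes. The mean of the 9 genes was 9.58, 9.41 and 8.85 in LFD, 9.69, 11.01 and 10.98 in HFD, and 10.37 and 11.40 in ob/ob. The mean of 7 fibroblast genes (Col1a1, Col1a2, Col3a1, Dcn, Lum, Pdgfra and Pdgfrb) was 10.16, 10.01 and 9.74 in LFD, 10.53, 11.05 and 11.38 in HFD, and 10.90 and 11.81 in ob/ob. That of 9 macrophage genes was 9.54, 9.35 and 8.94 in LFD, 9.75, 10.66 and 10.30 in HFD, and 10.57 and 11.32 in ob/ob. The fibroblast and macrophage means did not overlap between LFD and the other mice, as the plot of list means shows. LFD replicate 3 was lowest and ob/ob replicate 2 highest in both. This lack of overlap was not particular to them. The neutrophil means reached 6.15 in LFD and began at 6.42 in the other mice. For platelet genes these values were 4.45 and 4.91, and for the TGF-β targets described below 7.30 and 7.33. Not every fibroblast gene followed its list mean. In both groups together against LFD, 6 of the 7 were higher, while Dcn stood at -0.01 (SE 0.274). All 9 macrophage genes were higher. In bulk tissue, more cells of a type and more RNA per cell cannot be told apart.

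The exocrine acinar genes moved the opposite way. The mean of 21 acinar enzyme and secretory genes was 18.52, 18.71 and 18.96 in LFD, 18.81, 16.70 and 14.76 in HFD, and 18.09 and 15.07 in ob/ob. HFD replicate 1, the HFD mouse nearest to LFD for most of the 9 genes, also had an acinar mean inside the LFD range. All 21 acinar genes were lower in both groups together than in LFD, with a median difference of -2.01. At an unadjusted p under 0.05 in limma, 3 of the 21 were lower, beside 1639 of all 15047 genes. As a share of the summed linear values, the acinar genes made up between 31.6 and 34% in LFD mice, 33.1, 24.5 and 11.9% in HFD, and 33.3 and 13.6% in ob/ob. Their part in the differences of the 9 genes was not tested beyond the fits with a covariate that follow.

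Among the other marker lists, 5 of 6 neutrophil genes were measured, with a mean of 5.63 ± 0.46 in LFD (SD, n = 3), 7.61 ± 0.66 in HFD (n = 3) and 6.68 ± 0.37 in ob/ob (n = 2). For platelets, which carry thrombospondin-1, 3 of 6 genes were measured, with means of 4.38 ± 0.08, 5.24 ± 0.35 and 5.07 ± 0.15. The duct means were 8.36 ± 0.14, 8.90 ± 0.31 and 8.09 ± 0.66, and the smooth muscle and mural means 7.01 ± 0.47, 7.36 ± 0.70 and 7.20 ± 0.29. In the same order of groups, the endothelial means were 7.69 ± 0.38, 7.95 ± 0.29 and 7.70 ± 0.43, the mesothelial means 5.99 ± 0.37, 5.68 ± 0.10 and 5.53 ± 0.13, and the adipocyte means 7.03 ± 0.21, 7.20 ± 0.11 and 7.16 ± 1.03. The islet means were 9.59 ± 0.57, 9.08 ± 0.40 and 10.33 ± 0.77, and the lymphocyte means 4.15 ± 1.25, 3.93 ± 0.22 and 3.78 ± 0.04. Genes of a list did not always move alike. For both groups against LFD, higher and lower genes numbered 4 and 3 for duct and 4 and 1 for smooth muscle and mural. They numbered 4 and 2 for endothelial, adipocyte and islet, and 2 and 3 for mesothelial and lymphocyte. All 3 platelet genes were higher, but Pf4 by 0.26 in HFD and 1.37 in ob/ob, and Clec1b by 1.16 and 0.06. For liver only 2 of 5 genes were measured, with means of 4.71 ± 0.17, 5.96 ± 2.26 and 5.77 ± 0.81. The HFD spread came from HFD replicate 3, where the mean of these 2 genes was 8.54. That mean came from Apoa1, at 13.46, whereas Alb was at 3.62, its lowest value of the 8 mice. The part of these cell types in the levels of the 9 genes was not tested.

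**Figure D4:**
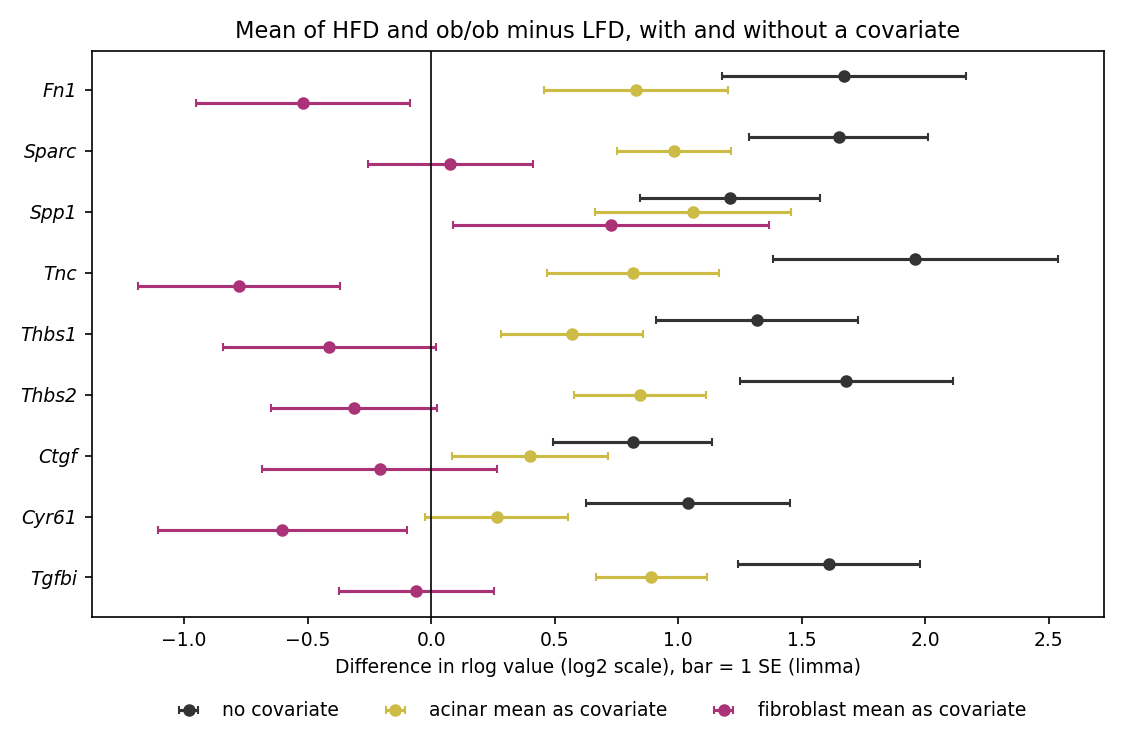
Difference in rlog value (log2 scale, bar of 1 SE) between the mean of HFD and ob/ob and LFD for each gene, without a covariate, with the acinar mean and with the fibroblast mean as a covariate. All 9 stay above 0 with the acinar mean, from 0.27 (Cyr61) to 1.06 (Spp1), and 7 of 9 fall below 0 with the fibroblast mean, where Sparc (0.08) and Spp1 (0.73) stay above.

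With the acinar mean as a covariate in the limma fit, the differences of both groups from LFD kept their direction in 9 of 9 genes and were smaller. They were 1.06 for Spp1 (SE 0.397), 0.98 for Sparc (SE 0.231), 0.89 for Tgfbi (SE 0.224) and 0.85 for Thbs2 (SE 0.268), and the lowest was 0.27 for Cyr61 (SE 0.290). At an unadjusted p under 0.05, 5 of the 9 remained (6.68% of all genes higher). Spp1 moved least, from 1.21 to 1.06, and Cyr61 moved from 1.04 to 0.27. Apart from HFD replicate 1, every HFD and ob/ob mouse had an acinar mean below all LFD mice. The effect of this covariate and that of the groups can therefore hardly be told apart. In the same fit ob/ob was above HFD by 0.82 for Tgfbi (SE 0.220) and 0.60 for Sparc (SE 0.226), with unadjusted p-values from limma of 0.00404 and 0.0243 and adjusted p-values of 0.438 and 0.547.

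With the fibroblast mean as a covariate, 7 of 9 differences from LFD were below 0, from -0.78 for Tnc (SE 0.409) to -0.06 for Tgfbi (SE 0.313), and 0 of 9 had an unadjusted p under 0.05 in limma, where 1484 of all genes did. Spp1, at 0.73 (SE 0.639), and Sparc, at 0.08 (SE 0.333), were the genes above 0. Since the fibroblast mean did not overlap between LFD and the other mice, the effect of this covariate and that of the groups cannot be told apart in these 8 mice. Between ob/ob and HFD, this fit gave -0.66 for Tnc (SE 0.275) and -0.85 for Ctgf (SE 0.320), with unadjusted p-values of 0.0398 and 0.0250 in limma and adjusted p-values of 0.506 and 0.463.

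The 9 genes varied together over the mice. The Pearson correlation of 36 pairs of them over 8 mice, which share the same libraries and group differences, ran from 0.66 (Ctgf and Spp1) to 0.99 (Tgfbi and Sparc), with a median of 0.90. Values above 0.9 were not confined to the 9 genes. Of the 15038 other genes, between 199 (1.32%, Spp1) and 927 (6.16%, Cyr61) correlated with a member above 0.9.

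The genes most like each member over the 8 mice, by the same measure, were taken as the 3 highest of the table. For Thbs2 they were the myosin gene Myo1f (0.996), the procollagen peptidase gene Adamts2 (0.995) and the collagenase gene Mmp14 (0.993). For Tgfbi they included the hematopoietic factor gene Lyl1 (0.996) and the macrophage receptor gene Csf1r (0.991), and for Sparc they were Tep1 (0.994), Pros1 (0.992) and Myo1f (0.991). Elastin (Eln, 0.990) was among the 3 of Thbs1, with Plin2 (0.992) and Zbtb38 (0.989). Tnc was most like Akap13 and the AP-1 gene Fosl2 (both 0.993) and Apaf1 (0.991). Ctgf was most like the TEAD cofactor gene Vgll4 (0.989), Ier3 (0.986) and Agrn (0.981), and Cyr61 like Tnfaip2 (0.990), Mrps6 (0.988) and Stn1 (0.986). Spp1 was most like Enpp4 (0.995), Cyba (0.979) and Dtymk (0.978), and Fn1 like Fut11 (0.989), A530064D06Rik (0.988) and Pmpca (0.987).

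Other genes of the same biology were taken from lists and compared for both groups against LFD. Of 27 other matricellular and related matrix genes, 23 were measured, 18 of them higher, and 8 higher and 1 lower at an unadjusted p under 0.05, with a median difference of 0.45. Postn, which encodes periostin, a fibroblast product that binds collagen, had means of 9.20 ± 0.29 in LFD mice, 10.97 ± 0.42 in HFD mice and 11.26 ± 0.20 in ob/ob (SD). Its difference of 1.92 had an SE of only 0.223 and an adjusted p of 0.0598 in limma. Thbs4, a pentameric thrombospondin, was higher by 1.85 (SE 0.468, adjusted p = 0.107). The lowest were Vtn, which encodes vitronectin, with -1.93 (SE 0.737, adjusted p = 0.161), and Smoc1, a relative of Sparc, with -1.10 (SE 0.497, adjusted p = 0.205). For Postn, Thbs4, Vtn and Smoc1 the LFD mice did not overlap with the others. Over all 15047 genes this held for 1414 higher and 1362 lower genes.

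Of the receptors, 17 of 17 listed genes were measured and 17 were higher, 11 of them at an unadjusted p under 0.05, with a median of 0.84. The highest were Cd44, the receptor of osteopontin and hyaluronan, at 1.30 (SE 0.458, adjusted p = 0.144), and Itga5, the fibronectin receptor subunit, at 1.26 (SE 0.445, adjusted p = 0.145). None was lower.

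The known YAP and TEAD targets other than Ctgf and Cyr61 were 20 genes, of which 19 were measured and 16 were higher. At an unadjusted p under 0.05, 6 were higher and 1 was lower, and the median difference was 0.40. Ankrd1, a classical YAP target, was higher by 1.97 (SE 0.548, adjusted p = 0.113) and Nt5e, which encodes CD73, by 1.70 (SE 0.546, adjusted p = 0.130). Amotl2, itself a YAP target and inhibitor, was at -0.50 (SE 0.198, adjusted p = 0.170), and Fjx1 at -0.16 (SE 0.296, adjusted p = 0.750).

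All 13 listed TGF-β pathway targets were measured and higher, 9 of them at an unadjusted p under 0.05, with a median of 0.75. Ltbp2, a latent TGF-β binding protein gene, was higher by 1.67 (SE 0.482, adjusted p = 0.116). Each of these 4 lists is read against the 14.5% of all genes that were higher at an unadjusted p under 0.05 and a median of 0.04, and no gene of them passed the adjustment in limma.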

How the data were processed

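The authors quality-checked the pancreas RNA-Seq reads (FastQC), estimated transcript levels of Gencode M18 (GRCm38) using Salmon 0.11.3 and collapsed them to genes by tximport. The authors then deposited rlog values made by DESeq2 1.22.2, on a log2 scale, for 15047 symbols. The filter is not described in the sources used here, and counts were not used, so no count test was run. Salmon splits reads between similar transcripts by probability. All 8 columns matched a mouse by name, and groups came from the labels. Replicates are different animals.

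Testing of the deposited values used limma (version 3.58.1, under R 4.3.3) on all 8 mice, a mean per group and a trended empirical Bayes variance. Adjustment ran over all 15047 genes. The fit was tested on simulated data. Sequences and motifs came from RefSeq GRCm38.p6, and coordinates from Gencode M21. The 9 genes, lists and tests were chosen with earlier results of these data known. Beyond the 9 genes, named genes are the 2 highest and 2 lowest of each pathway list, where below 0, and the 3 most correlated with each member, a few of which are not reported here. Alternatives were no trend, only the groups compared, a minimum mean of 5, median centring, quantile normalization, a replicate block, acinar or fibroblast covariates, and leaving out each mouse.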

Additional observations from a re-analysis of the deposited data

How the results depend on the processing

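Over the alternatives, the differences of single genes kept their direction in 137 of 144 values for HFD against LFD, 138 of 144 for ob/ob against LFD, 129 of 144 for ob/ob against HFD and 128 of 135 for both groups against LFD. Both scalings of each mouse (median centring and quantile normalization), the filter, the variance without a trend and the replicate block changed no direction. Only the fibroblast covariate and leaving out a mouse did, the second only for ob/ob against HFD. With 2 or 3 mice per group, leaving 1 out assumes that a lone ob/ob mouse varies like the other groups. Depth is unknown, so no limit from counting can be given.

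With the fibroblast covariate, HFD against LFD turned to -0.364 for Fn1, -0.00956 for Sparc, -0.451 for Tnc, -0.264 for Thbs1, -0.235 for Thbs2, -0.453 for Cyr61 and -0.245 for Tgfbi. The median was -0.245 and 0 of the 9 genes had an unadjusted p under 0.05. For ob/ob against LFD it gave -0.677 for Fn1, -1.11 for Tnc, -0.559 for Thbs1, -0.393 for Thbs2, -0.634 for Ctgf and -0.750 for Cyr61, a median of -0.559 and 1 gene at an unadjusted p under 0.05. For ob/ob against HFD it gave -0.313 for Fn1, -0.656 for Tnc, -0.296 for Thbs1, -0.159 for Thbs2 and -0.297 for Cyr61, a median of -0.296, 2 of the 9 genes at an unadjusted p under 0.05 and 2 called genes over the table. For both groups against LFD it gave -0.520 for Fn1, -0.779 for Tnc, -0.412 for Thbs1, -0.314 for Thbs2, -0.208 for Ctgf, -0.602 for Cyr61 and -0.0599 for Tgfbi, a median of -0.314 and 0 genes at an unadjusted p under 0.05. Over all genes, 1364, 1566, 1393 and 1484 had an unadjusted p under 0.05 with this covariate in the 4 comparisons. The cause was not tested.

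With the acinar covariate, the members at an unadjusted p under 0.05 in limma numbered 2 in HFD against LFD, 4 in ob/ob against LFD, 2 in ob/ob against HFD and 5 for both groups, beside 1585, 1482, 1176 and 1663 of all genes. The median was 0.975 in ob/ob against LFD and 0.83 for both groups, and 1 gene over the table was called in each comparison except HFD against LFD. With only the groups compared, 1 gene was called in HFD against LFD and 38 in ob/ob against LFD, none of the 9 among them.

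Leaving out each mouse, the called genes ranged from 0 to 2812 in HFD against LFD, 0 to 89 in ob/ob against LFD, 0 to 1 in ob/ob against HFD and 0 to 3326 for both groups. The highest count each time was without HFD replicate 1, except in ob/ob against HFD. The members at an unadjusted p under 0.05 in limma ranged from 1 to 9 (1 without LFD replicate 3), from 2 to 8 (2 without ob/ob replicate 2) and from 0 to 2 in the first 3 comparisons, and from 6 to 9 for both groups. The count over all genes moved with them, from 1480 to 5445 in HFD against LFD (1599 without LFD replicate 3), from 752 to 4075 in ob/ob against LFD (752 without ob/ob replicate 2), from 369 to 1117 in ob/ob against HFD and from 2037 to 5824 for both groups. The median in ob/ob against LFD ranged from 1.13 (without ob/ob replicate 2) to 2.36. Between ob/ob and HFD the range was -0.730 to 1.45 for Fn1, -0.018 to 0.894 for Spp1, -0.623 to 0.994 for Tnc, -0.306 to 0.560 for Thbs1, -0.0556 to 0.967 for Thbs2 and -0.362 to 0.613 for Cyr61.

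Replicate numbers were not taken to pair the mice, since the deviations of same-numbered LFD and HFD mice correlated at -0.0595, 0.113 and -0.281, and not every mouse correlated best with its own number. Same-numbered LFD and ob/ob mice correlated at -0.0967 and 0.128, and HFD and ob/ob mice at 0.592 and 0.303, where the deviations of 2 ob/ob mice mirror each other. With the replicate block limma called 0 genes in each comparison, and 9, 8, 0 and 9 members had an unadjusted p under 0.05 for HFD and for ob/ob against LFD, for ob/ob against HFD and for both groups against LFD, beside 3255, 3243, 467 and 4157 of all genes.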
